A study of Mus musculus with 6 samples.

Results

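The tachykinins are a family of neuropeptides, and 4 genes of this family, the precursors Tac1 and Tac2 and the receptors Tacr1 and Tacr3, were examined in ribosome-bound RNA from kisspeptin (Kiss1) cells of the medial amygdala (MeA) of female mice. They were chosen by gene symbol, and all 4 had a row among the 13886 genes in the expression table. The remaining precursor Tac4 and the remaining receptor Tacr2 were not listed in that table, which holds only genes above a minimum level, so no value is given for them. The study used Kiss1Cre+/Rpl22HA+/+ females, in which the ribosomal protein Rpl22 carries an HA tag in cells that express, or once expressed, Cre from the Kiss1 gene, so that an HA antibody pulls down their ribosomes (the RiboTag method). All mice were ovariectomized at 8 weeks of age, all first received an estradiol (E2) capsule for 4 days followed by 7 days without it, and they were then given an E2 capsule (the E2 group) or none (the OVX group) and collected 5 days later. MeA punches of 4 mice were pooled for each library, with 3 libraries in each group and 6 in all. No library from Cre-negative mice or from whole-punch Input RNA was analysed here, so the level that a transcript reaches through RNA carried over from other cells was not measured.

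Tachykinin precursors are cut by convertases into short amidated peptides that are released with fast transmitters and act on G protein-coupled receptors. Tac1 encodes substance P and neurokinin A, and Tac2 encodes neurokinin B. The neurokinin 1 receptor, encoded by Tacr1, prefers substance P, and the neurokinin 3 receptor, encoded by Tacr3, prefers neurokinin B. Both receptors couple mainly to Gq proteins and raise the excitability of the cells that carry them. Kisspeptin neurons of another region, the arcuate nucleus, are named KNDy neurons because they make kisspeptin, neurokinin B and dynorphin together, and neurokinin B acts there through Tacr3 in the generation of gonadotropin-releasing hormone pulses.

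The bases that encode the 3 peptides are shown because the peptides tell the 2 precursors apart and because all 3 end in the same motif, phenylalanine, any residue, glycine, leucine and methionine, which the receptors recognize. They are taken from the GENCODE M21 transcripts on GRCm38, are written 5′ to 3′ on the plus strand, and carry the last 5 codons in capitals.
substance P (Tac1): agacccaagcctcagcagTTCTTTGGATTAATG
neurokinin A (Tac1): cataaaacagattccTTTGTTGGACTAATG
neurokinin B (Tac2): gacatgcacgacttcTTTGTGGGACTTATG
The substance P codons lay at chr6:7556732-7556764 in exon 3 of Tac1 and were present in 4 of 4 annotated coding transcripts. Those of neurokinin A lay at chr6:7559101-7559130 in exon 6 and were present in 2 of 4. The neurokinin B codons lay at chr10:127729116-127729145 in exon 6 of Tac2 and were present in 2 of 2. Over the 15 bases in capitals, neurokinin A matched neurokinin B at 13 and substance P at 12, and neurokinin B matched substance P at 10. The expression values are totals per gene, so the Tac1 values below do not separate transcripts with the neurokinin A exon from those without it.

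The 4 genes lie on the plus strand of GRCm38, Tac1 (ENSMUSG00000061762) at chr6:7554879-7565834, Tac2 (ENSMUSG00000025400) at chr10:127724478-127731768, Tacr1 (ENSMUSG00000030043) at chr6:82402334-82560104 and Tacr3 (ENSMUSG00000028172) at chr3:134829007-134934579. In the annotation, 0 of their exonic bases were shared with another gene, which matters because the libraries did not keep strand. The deposited values are log2 CPM, the read count of a gene divided by the scaled total of its library, so that libraries can be compared. Library sizes after that scaling were 28.1 to 34.2 M counts, and the correlation between any pair of libraries over all genes was 0.977 to 0.989. The neuronal markers were present in every library, with a summed CPM of 5530 to 6040 over 6 genes led by Snap25. Across all genes the median difference between E2 and OVX was 0.0034 on the log2 scale, and 40 genes, 0.288% of those tested, differed at an adjusted p under 0.05 (limma, Benjamini-Hochberg), 32 higher with E2 and 8 lower.

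None of the 4 tachykinin genes passed that test. Tacr1 came closest, with E2 libraries 1.46-fold above OVX libraries and no overlap between the groups, while Tac1, Tac2 and Tacr3 overlapped between the groups. At an unadjusted p under 0.05, 1 of the 4 members stood out (Tacr1), against 8.56% of all genes. In bulk RNA of this kind, fewer cells with a transcript and less of it per cell cannot be told apart.

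**Figure D1:**
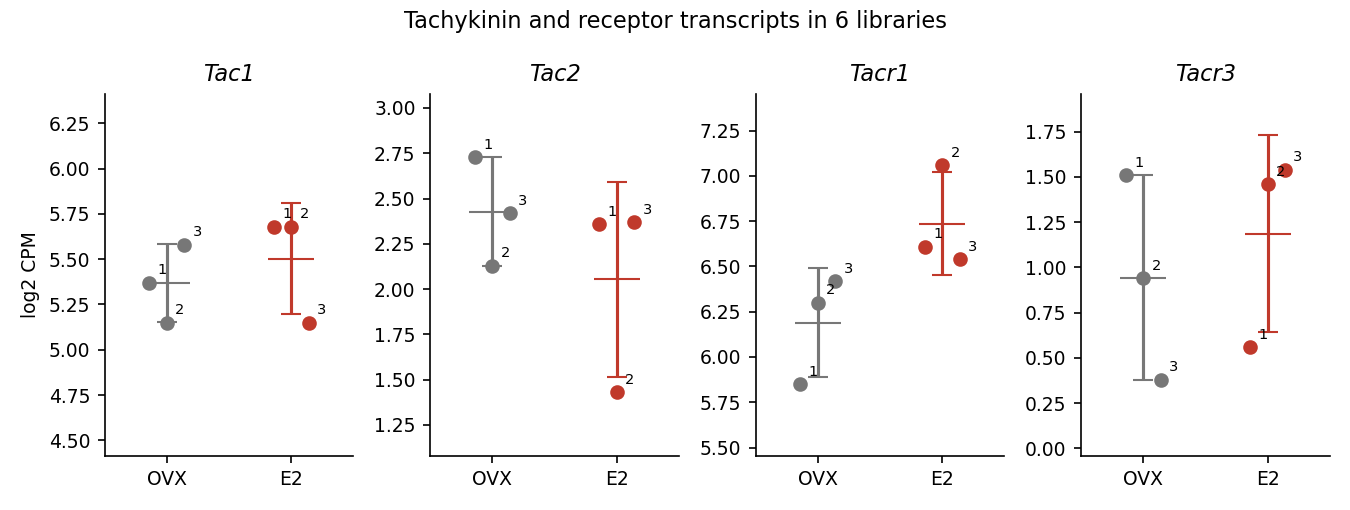
Log2 CPM of Tac1, Tac2, Tacr1 and Tacr3 in the 3 OVX libraries (grey) and 3 E2 libraries (red), numbered by replicate, with the group mean (long bar) and SD (whiskers); each vertical axis spans the same 2 log2 units from its own starting level. The E2 points lie above all OVX points for Tacr1, from 6.54 against 6.42, and the groups overlap for the other three genes.

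Tac1, the substance P and neurokinin A precursor, stood at log2 CPM of 5.37, 5.15 and 5.58 in OVX replicates 1 to 3 and of 5.68, 5.68 and 5.15 in E2 replicates 1 to 3. The E2 replicates 1 and 2 were the highest, but E2 replicate 3 was as low as OVX replicate 2, so the groups overlapped. The group means were 5.37 ± 0.22 (SD, n = 3) for OVX and 5.50 ± 0.31 (SD, n = 3) for E2. The difference of 0.14 (SE 0.14, 95% interval -0.16 to 0.44) did not pass the test (limma, adjusted p = 0.858; exact permutation p = 0.5, 2-sided). Without E2 replicate 3 the difference was 0.32, still short of the threshold (limma, adjusted p = 0.387), and without OVX replicate 2 it was 0.03.

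Tac2, the neurokinin B precursor, stood at log2 CPM of 2.73, 2.13 and 2.42 in OVX replicates 1 to 3 and of 2.36, 1.43 and 2.37 in E2 replicates 1 to 3. The highest value was in an OVX library and the lowest in E2 replicate 2, with the remaining 4 libraries between 2.13 and 2.42. The means were 2.43 ± 0.30 (SD, n = 3) for OVX and 2.05 ± 0.54 (SD, n = 3) for E2, a difference of -0.37 (SE 0.28, 95% interval -0.98 to 0.23) that did not pass the test (limma, adjusted p = 0.789; exact permutation p = 0.4, 2-sided). The difference rested largely on E2 replicate 2, since without it the difference was -0.06 (limma, adjusted p = 0.987).

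Tacr1, the neurokinin 1 receptor, stood at log2 CPM of 5.85, 6.30 and 6.42 in OVX replicates 1 to 3 and of 6.61, 7.06 and 6.54 in E2 replicates 1 to 3. All 3 E2 libraries lay above all 3 OVX libraries, with a gap of E2 replicate 3 at 6.54 to OVX replicate 3 at 6.42, and OVX replicate 1 and E2 replicate 2 were the extremes. The groups did not overlap for 13.7% of all genes, and E2 was the higher group for 6.85%, so that separation alone was common in this table. The means were 6.19 ± 0.31 (SD, n = 3) for OVX and 6.74 ± 0.29 (SD, n = 3) for E2. The difference was 0.54 on the log2 scale (SE 0.14, 95% interval 0.24 to 0.85), or 1.46-fold with an interval of 1.18 to 1.81. In this fit the variance of each gene is drawn toward that of genes of like level, which vary less than Tacr1. With robust empirical Bayes, which draws outlying genes less, the SE was 0.224 (limma, unadjusted p = 0.0625).

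Among all 13886 genes Tacr1 ranked 137 by p (limma, unadjusted p = 0.00212), and its adjusted p was 0.213, above the threshold. The exact permutation test gave p = 0.1, the smallest that 3 against 3 libraries allow and the value of any gene without overlap. With no overlap between the groups, the difference had to stay above 0 whichever library was left out. It ranged from 0.37 without OVX replicate 1 (limma, adjusted p = 0.614) to 0.66 without OVX replicate 3 (limma, adjusted p = 0.132). The smallest adjusted p of any fit was 0.10, without E2 replicate 3.

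Tacr3, the neurokinin 3 receptor, stood at log2 CPM of 1.51, 0.94 and 0.38 in OVX replicates 1 to 3 and of 0.56, 1.46 and 1.54 in E2 replicates 1 to 3. High and low libraries occurred in both groups, and the values of the 2 groups were interleaved. The means were 0.94 ± 0.57 (SD, n = 3) for OVX and 1.19 ± 0.55 (SD, n = 3) for E2. The difference of 0.24 (SE 0.39) had a 95% interval of -0.60 to 1.09, so a 2.13-fold rise was within the error (limma, adjusted p = 0.928; exact permutation p = 0.6, 2-sided). Its sign depended on a single library, as it was -0.04 without OVX replicate 3.

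The 4 members also differed in how much they varied between libraries of the same treatment. The within-group SD of Tacr1 was 0.296 on the log2 scale, and 99.5% of the 1016 genes within 0.25 log2 of its level had a smaller one, their median being 0.0803. Tac1 had an SD of 0.265, above 98.4% of the 1281 genes near its level, whose median was 0.10. Tac1 and Tacr1 were thus among the more variable transcripts of their level. Tac2 and Tacr3 stood out less, as Tac2 had an SD of 0.437 against a median of 0.268 for 611 genes and exceeded 87.9% of them, and Tacr3 one of 0.557 against 0.44 for 424 genes and exceeded 71.0%.

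**Figure D2:**
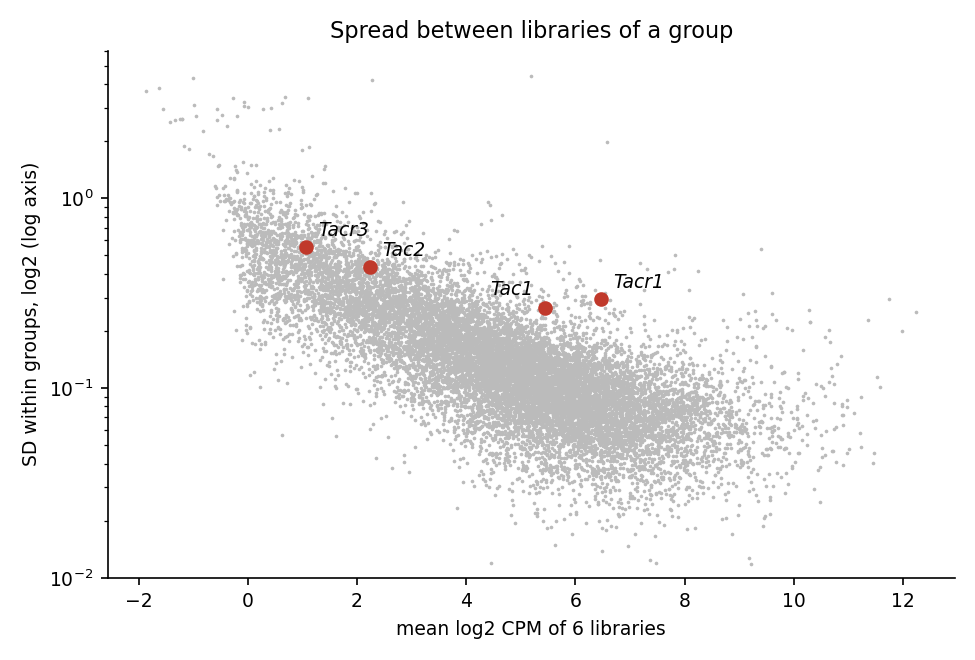
Within-group SD of log2 CPM (vertical, log axis) against mean log2 CPM of the 6 libraries (horizontal) for all 13886 genes (grey), with the 4 members in red. Tac1 and Tacr1 lie at the upper edge of the cloud at their level, with SDs of 0.265 and 0.296, while Tac2 and Tacr3 lie inside it.

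Levels of different genes were compared per kilobase of the longest annotated transcript, since CPM grows with transcript length. On that scale Tac1 was at a mean log2 level of 4.45 (range over 6 libraries 4.17 to 4.70), Tacr1 at 4.14 (3.52 to 4.74), Tac2 at 2.47 (1.66 to 2.96) and Tacr3 at -0.85 (-1.53 to -0.37). Tac1 and Tacr1 overlapped and did not differ beyond their spread, whereas the steps from Tacr1 to Tac2 (1.66 log2) and from Tac2 to Tacr3 (3.32 log2) exceeded the ranges. The length chosen matters for Tac1, because its longest annotated transcript of 1975 bases is not of the coding type. With its longest coding transcript of 1230 bases, a length tried after the data were seen, Tac1 was at 5.14 (4.85 to 5.38) and lay above every Tacr1 value. With the union of all exons as the length, Tacr1 at 3.76 came before Tac1 at 3.67.

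The substance P side of the family, Tac1 and Tacr1, was therefore present at higher levels than the neurokinin B side, Tac2 and Tacr3. Within a library, Tac1 exceeded Tac2 by 1.43, 1.81 and 1.95 log2 per kilobase in OVX replicates 1 to 3 and by 2.11, 3.04 and 1.57 in E2 replicates 1 to 3. Tacr1 exceeded Tacr3 by 3.92, 4.95 and 5.63 in the OVX replicates and by 5.63, 5.19 and 4.58 in the E2 replicates. Both differences had the same direction in all 6 libraries and overlapped between the treatments.

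Each receptor was also set beside the precursor of its preferred peptide. Tacr1 minus Tac1 was -0.87, -0.19 and -0.50 log2 per kilobase in OVX replicates 1 to 3 and -0.42, 0.04 and 0.04 in the E2 replicates, with the longest transcript as the length. With the longest coding transcript it was -1.55, -0.88 and -1.18 in OVX and -1.11, -0.64 and -0.64 in E2, so whether receptor and precursor came close to level depended on the length chosen. Tac2 exceeded Tacr3 by 3.36, 3.33 and 4.19 in the OVX replicates and by 3.95, 2.11 and 2.97 in the E2 replicates. Per kilobase, neurokinin B precursor RNA was thus above that of its receptor in all 6 libraries. In log2 CPM without the length this did not hold in E2 replicate 2, with Tac2 at 1.43 and Tacr3 at 1.46.

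Against other neuropeptide genes on the same scale, Tac1 was number 7 of 22 precursor rows, between Npy at 4.46, which encodes neuropeptide Y, and Adcyap1 at 4.21, which encodes PACAP. The top precursor was Cck at 9.41, which encodes cholecystokinin. Tac2 was number 14, between Nts (neurotensin) at 2.70 and Gal (galanin) at 2.27. These places are of means over both groups, and that of Tac2 differed between them. In OVX it was number 11 at 2.66, above Kiss1 (ENSMUSG00000115958) at 2.35 and Gal at 1.25, and in E2 it was number 16 at 2.28, below Kiss1 at 4.26 and Gal at 3.29. Tacr1 was number 6 of 41 neuropeptide receptors, between Cckbr at 4.28, a cholecystokinin receptor, and Sstr2 at 3.87, a somatostatin receptor, and the top receptor was the nociceptin receptor Oprl1 at 4.98. Tacr3 was number 36, between Hcrtr2 at -0.72, an orexin receptor, and Avpr1a at -1.02, a vasopressin receptor. With the longest coding transcript as the length, Tac1 moved to number 6 and the other three members kept their places.

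**Figure D3:**
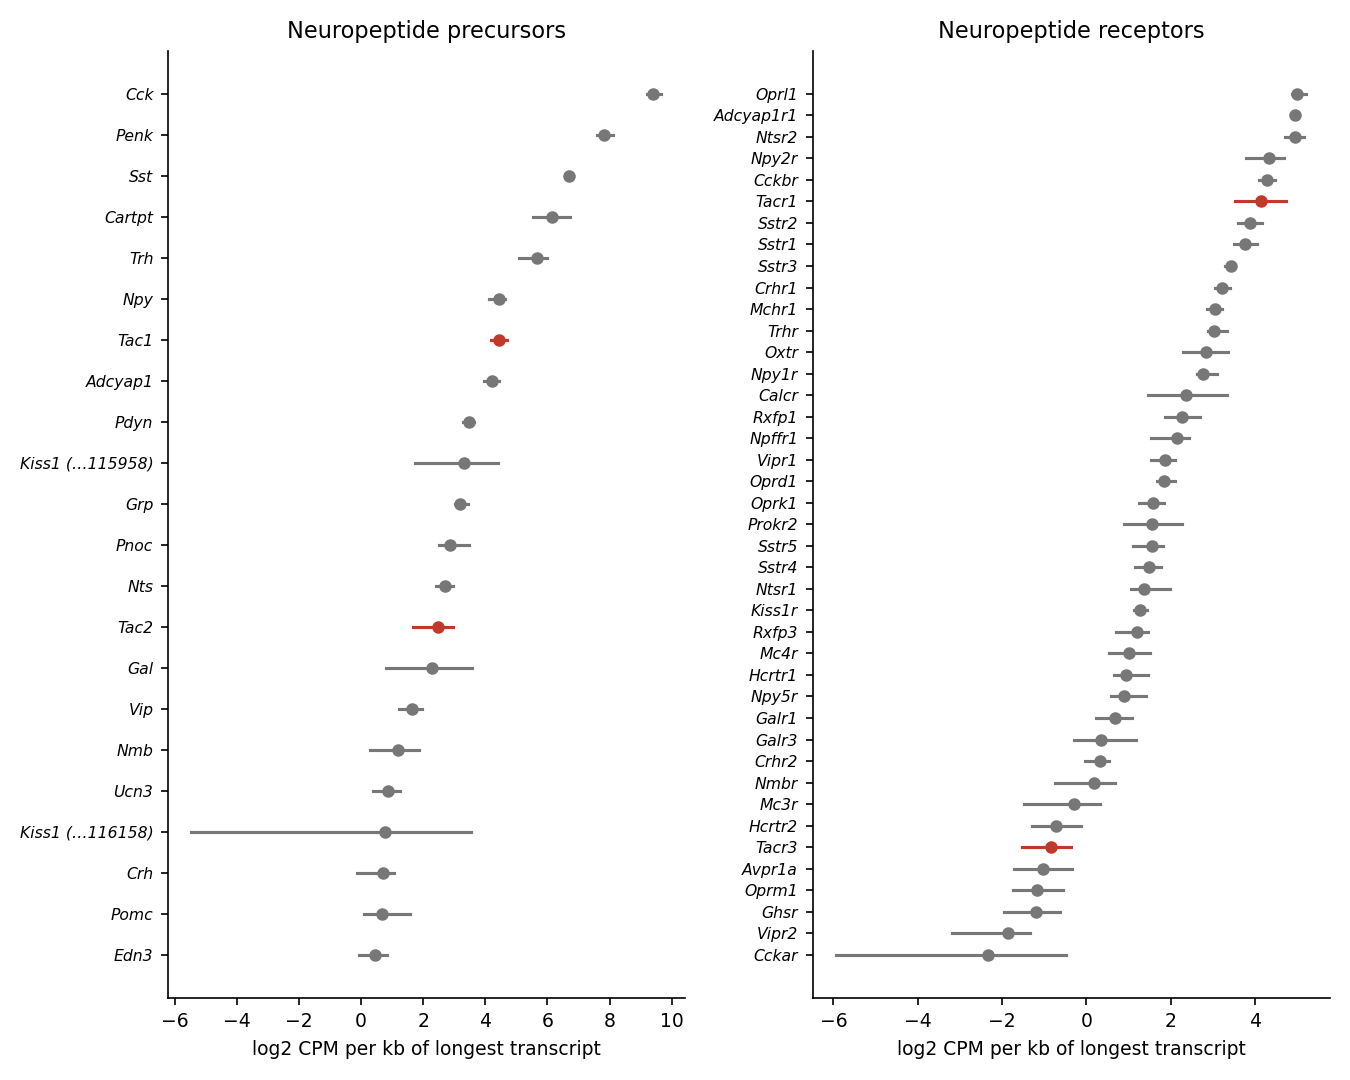
Mean log2 CPM per kilobase of the longest transcript (points) with the range of the 6 libraries (lines) for 22 neuropeptide precursor rows (left) and 41 neuropeptide receptors (right), members in red. Tac1 (4.45) and Tacr1 (4.14) lie in the upper part of their lists, Tac2 (2.47) lies past the middle and Tacr3 (-0.85) near the bottom; Kiss1 has 2 gene models, marked by the end of their identifiers.

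The same lists place the estradiol differences. Of the 41 receptors, 4 were called higher with E2 and 0 lower (limma, adjusted p under 0.05), beside 0.288% of all genes called. At an unadjusted p under 0.05 there were 13, beside 8.56% of all genes. The median difference of the 41 receptors was 0.092 beside 0.0034 for all genes. The receptors called were Oxtr (0.90), Npy2r (0.70), Rxfp1 (0.69) and Prokr2 (0.99 on the log2 scale), which bind oxytocin, neuropeptide Y, relaxin and prokineticin, and Tacr1 was number 6 by p and Tacr3 number 31. Thus the size of the Tacr1 difference, 0.54, was below that of all 4 called receptors. Its SE of 0.14 was larger than that of Oxtr (0.092), Npy2r (0.082) and Rxfp1 (0.10) and smaller than that of Prokr2 (0.17). These SEs are moderated toward genes of like level. The group SDs themselves were 0.31 and 0.29 for Tacr1 and 0.29 and 0.22 for Prokr2 (OVX and E2). Of the 22 precursor rows, 2 were called higher with E2 and 0 lower, Kiss1 and Gal, with a median of 0.12. Tac2 was number 11 and Tac1 number 16 by p.

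The genes of KNDy neurons were listed because they include Tac2 and Tacr3. Of the 10 rows for 9 genes, 1 rose and 1 fell with E2, beside 0.288% of all genes called. At an unadjusted p under 0.05 (limma) there were 7 rows, beside 8.56% of all genes. Kiss1 (ENSMUSG00000115958), which encodes kisspeptin, stood at log2 CPM of 2.29, 1.82 and 1.13 in OVX replicates 1 to 3 and of 3.72, 3.80 and 3.45 in the E2 replicates, and rose by 1.91 (SE 0.26; limma, adjusted p = 0.00475). The estrogen receptor gene Esr1 fell by 0.70 (SE 0.12; limma, adjusted p = 0.0189), from 5.25, 4.93 and 5.30 to 4.62, 4.39 and 4.35. In both genes the groups were well separated, unlike in Tac2 and Tacr3.

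A second gene model that carries the symbol Kiss1 (ENSMUSG00000116158) stood at -5.82, -0.65 and 0.10 in OVX and at 2.97, 3.18 and 2.65 in E2 and did not pass (limma, adjusted p = 0.0942). Reads could be split between the Kiss1 models, so each value alone is uncertain. Slc17a6, the glutamate transporter VGLUT2 and the highest gene of the list, differed by 0.40 (limma, adjusted p = 0.117). The median of the 10 rows was 0.285. As the driver of Cre is Kiss1 itself, the tagged gene Rpl22 was examined too, and it stood at 5.18, 5.35 and 5.17 in OVX and at 5.51, 5.32 and 5.34 in E2, a difference of 0.15 (SE 0.088; limma, adjusted p = 0.691).

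**Figure D4:**
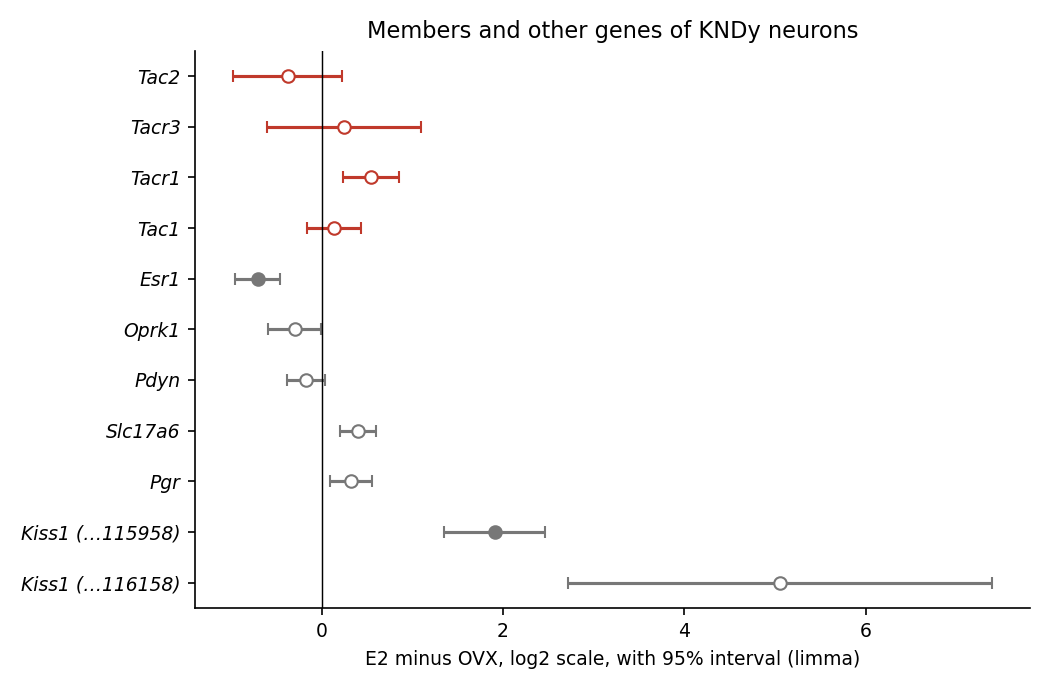
E2 minus OVX difference on the log2 scale with its 95% interval (limma) for the 4 members (red) and other KNDy neuron genes (grey); filled points passed an adjusted p under 0.05. The Tacr1 interval (0.24 to 0.85) excludes 0 but its point is open, and those of Tac1, Tac2 and Tacr3 include 0. The filled points are Esr1 (-0.70) and Kiss1 (1.91). The intervals rest on variances drawn toward genes of like level, and robust empirical Bayes gave Tacr1 a larger SE.

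Downstream of the receptors, 0 of the 12 listed genes for Gq proteins and calcium signalling passed the test (limma). As 0.288% of all genes passed, 0 calls would be usual for a list this short. At an unadjusted p under 0.05 there were 4, beside 8.56% of all genes, and the median difference was 0.00069. Prkce, a protein kinase C gene, was at a mean log2 CPM of 9.02. Prkca, another protein kinase C gene, had the smallest p, at 7.51, 7.46 and 7.49 in OVX and at 7.67, 7.75 and 7.74 in E2, a difference of 0.23 (limma, adjusted p = 0.125). Its groups did not overlap, and it varied far less between libraries than Tacr1.

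Receptor kinases, arrestins and RGS proteins end the signal of such receptors, and 0 of 8 passed, beside 0.288% of all genes. Of these 8, 0 had an unadjusted p under 0.05, beside 8.56% of all genes, and the median was -0.03. Arrb1, an arrestin, was at 8.18 and Rgs4, which speeds G protein inactivation, at 8.12, while Rgs2 had the smallest p at a difference of -0.14 (limma, adjusted p = 0.662). Of the 11 genes for channels that neurokinin receptors act on, 0 passed and 2 had an unadjusted p under 0.05, with a median of 0.03. Unc80, a partner of the sodium leak channel, was at a mean log2 CPM of 8.23, and Kcnj9, a G protein-gated potassium channel subunit, differed by -0.16 (limma, adjusted p = 0.429).

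Genes for the enzymes that make and degrade tachykinins did not pass either. Of all genes, 0.288% passed and 8.56% had an unadjusted p under 0.05. Of the 6 processing genes, 0 passed (limma; 2 at an unadjusted p under 0.05; median difference 0.0069), with carboxypeptidase E (Cpe) at a mean log2 CPM of 10.48 and the convertase Pcsk2 at 8.52. The convertase Pcsk1 had the smallest p, with a difference of 0.21 (limma, adjusted p = 0.397), and Pcsk2 differed in the opposite direction, by -0.14 (limma, adjusted p = 0.454). Of 7 peptidase genes, 6 were listed, Dpp4 not, and 0 of them passed (2 at an unadjusted p under 0.05; median -0.03). Lnpep was at 6.36 and Ece2, an endothelin-converting enzyme, at 5.96, and Ece2 had the smallest p, with 5.84, 5.82 and 5.78 in OVX against 6.16, 6.14 and 6.02 in E2 (difference 0.29; limma, adjusted p = 0.134).

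The 6 listed markers of excitatory neurons of the forebrain had lower means with E2, the opposite direction to Tacr1. Their summed CPM over 6 genes, led by the glutamate transporter gene Slc17a7, was 1140, 957 and 880 in OVX replicates 1 to 3 and 725, 668 and 871 in E2 replicates 1 to 3. The median difference of the 6 markers was -0.483, and that of Tbr1 was only -0.05 (limma, adjusted p = 0.915). At an unadjusted p under 0.05 (limma) there were 5 of them, beside 8.56% of all genes. Past the adjusted threshold there were 0, beside 0.288%. The order of the 6 libraries by this sum was the exact reverse of their order by Tacr1, from OVX replicate 1, with the most marker RNA and the least Tacr1, to E2 replicate 2, with the least marker RNA and the most Tacr1. Close opposite patterns are common over 6 libraries, as 216 of 12812 genes had a Pearson r below -0.9 with Tacr1. Slc17a7 makes up most of the summed CPM. The mean log2 CPM of the 6 markers, which weights them equally, was 5.66, 5.35 and 5.18 in OVX and 4.75, 4.90 and 5.19 in E2, so on that measure E2 replicate 1 was the lowest, E2 replicate 3 lay just above OVX replicate 3, and the order was not the exact reverse. With this mean as a covariate, a fit chosen after the data were seen, the Tacr1 difference was 0.17 (SE 0.18; limma, adjusted p = 0.997), and 3 genes were called in place of 40. In 6 libraries the covariate and the treatment overlap strongly, so the part of the markers and that of E2 in the Tacr1 difference cannot be told apart. Slc17a6, a glutamate transporter gene outside this list, went the other way. It stood at 7.33, 7.42 and 7.66 in OVX and at 7.84, 8.05 and 7.72 in E2 (limma, adjusted p = 0.117). That is the same order of libraries as by Tacr1, so the fall held for the listed markers and not for every glutamate transporter gene.

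**Figure D5:**
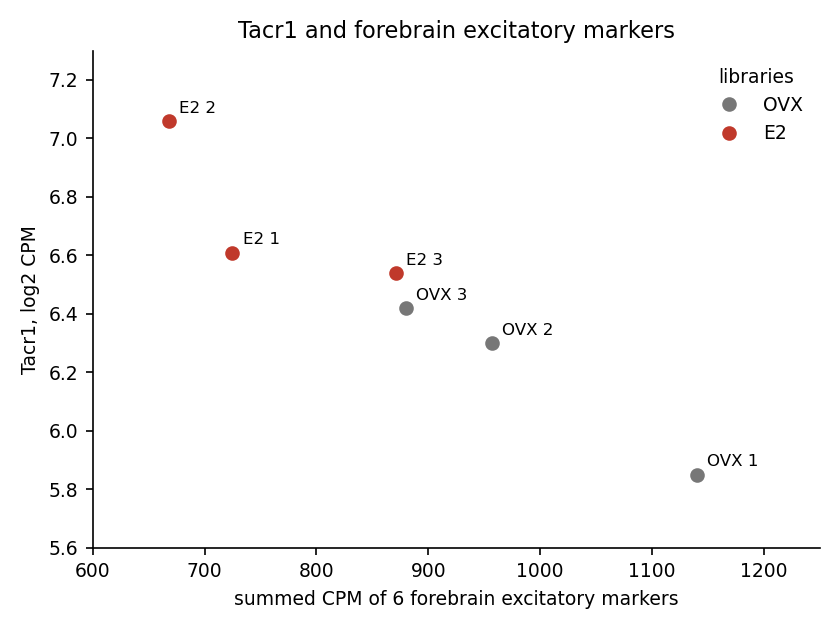
Tacr1 log2 CPM (vertical) against the summed CPM of 6 forebrain excitatory neuron markers (horizontal; the axes do not start at 0) in the 3 OVX (grey) and 3 E2 (red) libraries. The points descend from E2 replicate 2 (668 CPM, Tacr1 7.06) to OVX replicate 1 (1140 CPM, Tacr1 5.85). Over these 6 libraries, 216 of 12812 genes had a Pearson r below -0.9 with Tacr1.

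The order by Tac2 did not follow the 6 forebrain excitatory markers throughout, as OVX replicate 2 had the second most by either measure and the second lowest Tac2. With the marker covariate the Tac2 difference was -0.10 (SE 0.43) and that of Tac1 turned to -0.20 (SE 0.18), while that of Tacr3 was 1.21 (SE 0.51; limma, adjusted p = 0.997 for each). Tac2 is itself one of 6 markers listed for central amygdala neurons, which neighbour the MeA, and the summed CPM of that list, led by Sst, was 103 to 119 in OVX and 101 to 112 in E2. That of striatal neurons, led by Ppp1r1b, was 189 to 246 and 199 to 234. That of cortical interneurons, led by Nos1, was 572 to 624 and 583 to 670. Nos1, at a mean log2 CPM of 9.07, makes up most of this last sum. Kcnc2 came next at 4.93, and Vip was at 2.97, Chodl at 2.14 and Pvalb at 1.72. The sum therefore mainly reports Nos1. None of the genes in these lists passed the test, and their part in the Tac2 values was not tested.

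Transcripts of non-neuronal cells were present in every library. The summed CPM was 555 to 723 in OVX and 641 to 833 in E2 for astrocytes, led by Slc1a3, and 1370 to 1940 and 1450 to 2070 for oligodendrocytes, led by Mbp. Microglia, led by Csf1r, had 95.6 to 120 and 92.3 to 113, and vessel cells, led by Rgs5, 146 to 279 and 176 to 229. Choroid plexus, led by Ttr, had 686 to 1070 and 393 to 1010, the lowest in E2 replicate 2. Ttr, at a mean log2 CPM of 9.39, makes up most of this last sum. All 5 choroid plexus markers had lower means with E2 (median -0.608), 2 of them at an unadjusted p under 0.05 (limma). All 6 astrocyte markers had higher means (median 0.134), 1 at that level, beside 8.56% of all genes. In both lists 0 passed the adjusted threshold, beside 0.288%. OVX replicate 2 stood apart by anterior pituitary transcripts led by Prl, with a summed CPM of 1030 against 2.02 to 228 in the remaining libraries, while the pituitary genes Tshb, Fshb and Lhb were not listed. Without that library the Tacr1 difference was 0.60 (limma, adjusted p = 0.169).

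The genes whose pattern over the 6 libraries was most like that of each member were found by Pearson's r among 12812 genes, as a description only, since over 6 libraries many genes come close. For Tacr1 they were Olfm3 (r = 0.998), Fam133b (0.996), Dock11 (0.996), Zfp1 (0.987) and Hnrnpa3 (0.986), and 189 genes had r above 0.9. Olfm3, an olfactomedin family gene, stood at log2 CPM of 4.87, 5.09 and 5.15 in OVX and at 5.27, 5.52 and 5.24 in E2, so OVX replicate 1 was again the lowest and E2 replicate 2 the highest. For Tac2 they were Csmd2 (0.997), Mfap2 (0.990), Nptx1 (0.989), Pdk1 (0.988) and Nfib (0.984), with 113 above 0.9, and these genes were all lowest in E2 replicate 2 as Tac2 was. For Tac1 they were Tmem87b (0.985), Myl6 (0.983), Dmac2 (0.979), Arl3 (0.978) and Klhdc8b (0.977), with 155 above 0.9. For Tacr3 they were Eri2 (0.988), Ess2 (0.986), Ap3m1 (0.981), Wdr83 (0.977) and Amdhd2 (0.973), with 78 above 0.9. None of these 20 genes passed the test between E2 and OVX, which 0.288% of all genes passed.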

How the data were processed

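RNA pulled down with HA-tagged ribosomes was sequenced from poly-A selected, unstranded libraries. Per the labels and the study's methods, the authors used FastQC 0.11.8, Trimmomatic 0.38 and STAR 2.6.0a on GRCm38 with Ensembl 98, kept protein-coding genes above a minimum CPM, and deposited log2 CPM after TMM scaling and voom. A second deposited table holds the authors' own comparison and was not used. Here limma 3.58.1 (R 4.3.3, moderated test with an intensity trend, 2-sided, Benjamini-Hochberg over 13886 genes, threshold 0.05) compared 3 E2 with 3 OVX libraries, beside an exact permutation test per member. The procedure was tested on simulated data. Each library is 1 pool. The limma SEs, intervals and p-values rest on the spread between pools after it is drawn toward that of genes of like level. Transcript lengths and positions came from GENCODE M21 and were found for 13873 genes. The members and gene lists were chosen with earlier results of these data known. In each pathway list the genes named were those past the threshold, the 2 of highest mean and the 1 of smallest p; in marker lists, the highest; in the neuropeptide lists, the neighbours of each member per kilobase; and the 5 most correlated genes per member. Some genes so chosen are left out of the text. The called neuropeptide genes were named after their values were seen. Equal replicate numbers are not known to pair libraries. Deviations from the group means of same-numbered libraries correlated at -0.0213, -0.121 and -0.083, which gave no sign of pairing but cannot exclude it. Alternatives covered scaling, offsets, filters, weights, the replicate block and leaving out each library.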

Additional observations from a re-analysis of the deposited data

How the results depend on the processing

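No member passed the threshold in any fit. Over 10 settings other than leaving out a library or adding the marker covariate, the differences were 0.13 to 0.15 for Tac1, -0.38 to -0.30 for Tac2, 0.54 to 0.55 for Tacr1 and 0.17 to 0.26 for Tacr3. Leaving out each library gave 0.03 to 0.32, -0.53 to -0.06, 0.37 to 0.66 and -0.04 to 0.56. Only Tacr3 changed sign there, to -0.0374 without OVX replicate 3. With the forebrain excitatory mean as a covariate, added after the data were seen, the Tac1 difference was -0.20. With the replicate block, the Tacr1 adjusted p was 0.108 (limma) and 35 genes were called, and the block changed no call of a member; the numbers are not known to pair the libraries. The count of 40 called genes was 0 by limma without the trend (1017 at an unadjusted p under 0.05), 3 with the covariate, 35 to 51 under the remaining settings and 20 to 66 with a library left out: 21 without OVX replicate 1, 26 without E2 replicate 1, 20 without E2 replicate 2 and 66 without E2 replicate 3. Calls among the pathway lists, 2 in all, were 0 without the trend and with the covariate and 1 to 3 with a library left out. Tac1 was number 2 and Tacr1 number 1 in the level order with exon union lengths and with no length. Robust empirical Bayes gave the only unadjusted Tacr1 p above 0.05 outside the covariate fit, 0.0625. With 3 pools in a group, the intervals of Tac2 and Tacr3 were over 1 log2 unit wide.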
